A study of Apis mellifera with 3 samples.

Results

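Glucose oxidase and the glucose dehydrogenases of the honeybee were followed over 3 RNA libraries, from winter, spring and retired worker bees. A transcript sequence was counted as a member when the text of its best protein match named glucose oxidase or glucose dehydrogenase, with glucose-6-phosphate dehydrogenase left out. This took 26 of the 21441 sequences read in any library. Of these, 4 sequences matched a single glucose oxidase protein and 22 matched 17 dehydrogenase proteins, all of Apis mellifera. Several sequences can therefore belong to 1 gene.

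Both enzymes belong to the glucose-methanol-choline (GMC) oxidoreductases, flavoproteins that carry FAD and take electrons from an alcohol or sugar. Glucose oxidase passes these electrons to oxygen. It turns glucose into gluconolactone, which becomes gluconic acid, and releases hydrogen peroxide. In honeybees it is secreted by the hypopharyngeal glands of the head into larval food and into ripening honey, where the acid and the peroxide hold back microbes. Glucose dehydrogenase [acceptor] passes the electrons to quinone-like acceptors instead, and in Drosophila it is known from eclosion and from the reproductive tract. Most dehydrogenase names here are predictions, and they rest on likeness to other proteins, not on a test of which sugar or alcohol is used. The deposited orthology column listed choline dehydrogenase, another enzyme of the family, for all 26 members, and glucose dehydrogenase (acceptor) beside it for 5.

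The bees were full sisters of the subspecies Apis mellifera carnica (Pollmann), from virgin queens inseminated with the sperm of a single drone. Each group was 1 pool of 30 bees and 1 library, so n = 1 everywhere and differences between groups could not be checked against replicates. The labels state day 3 after emergence for the winter pool, day 6 for the spring pool and day 9 for the retired pool, so season, task and labelled age differed together and cannot be told apart. The protocol names hypopharyngeal glands and the design text names pooled heads.

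Uniquely mapped reads numbered 3.85 M for winter bees, 3.29 M for spring bees and 3.18 M for retired bees. On a sequence of 1 kb, 3 reads came to between 0.780 and 0.944 RPKM, a read count scaled to sequence length and library total. Royal jelly sequences, the defining products of nurse glands, made up 7.002% of reads in winter bees, 21.1% in spring bees and 18.1% in retired bees, with at most 3 of 53 at 0 reads in a library. All 38 neuron marker sequences were also read in every library, with summed levels between 1997 and 2511 RPKM. Transcripts of nerve cells were thus present in each pool, and in pooled tissue fewer cells of a type and less RNA per cell cannot be told apart. Other tissue markers varied more. In winter, spring and retired bees, 41 antenna marker sequences summed to 2978, 870 and 2381 RPKM. The sums were 903, 696 and 972 RPKM for 41 muscle sequences and 62.4, 36.9 and 30.1 RPKM for 5 hemocyte sequences. Of the antenna sequences, 4, 7 and 9 had 0 reads. In spring over winter 13 of them reached 10 RPKM in 1 of the 2 libraries. Their median log2 ratio was only -0.44, against -0.26 for all sequences. At least 2-fold lower were 4 of the 13, against 4.76% of all sequences, and 0 were higher, against 2.14%. The antenna sums therefore do not give the course of each sequence. The part of these tissues in the differences below was not tested. Intervals below are 95% intervals from read counts. They compare libraries, cover counting error only and are too narrow where reads are PCR copies.

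Glucose oxidase was among the most abundant transcripts in all 3 libraries, while a dehydrogenase whose gene lies next to it ranged from scarce to abundant. The main glucose oxidase sequence, TC12346, stood at 4819 RPKM in the winter library, 4674 in the spring library and 7500 in the retired library. It ranked 12th, 12th and 8th by RPKM among all sequences. The dehydrogenase TC14055 stood at 12.3 RPKM in the winter library, 507 in the spring library and 363 in the retired library. Its rank by RPKM was 10605 in winter, 123 in spring and 179 in the retired library. Every other dehydrogenase sequence stayed at or under 16.2 RPKM in all libraries.

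**Figure D1:**
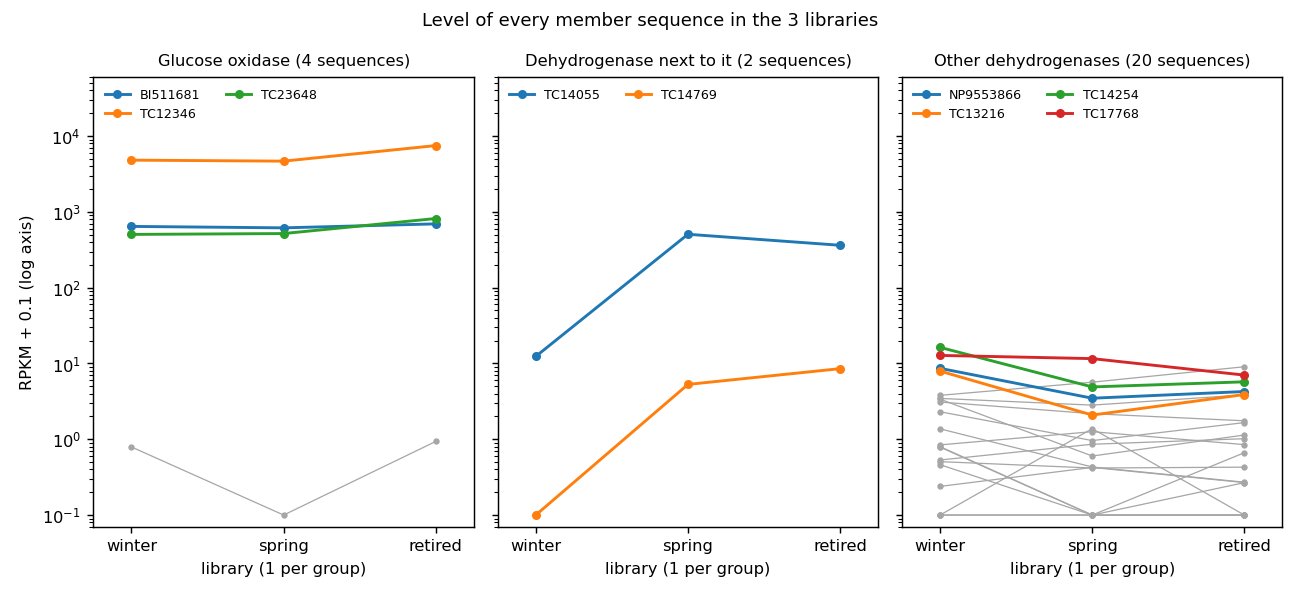
RPKM of all 26 member sequences in the winter, spring and retired libraries, on a log axis with 0.1 added so that sequences without reads can be drawn. Each line is a sequence, coloured where it had at least 50 reads in a library or matches the same protein as TC14055, and there is 1 library per group without error bars; TC12346 stays between 4674 and 7500 RPKM while TC14055 goes from 12.3 to 507 RPKM.

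Summed over its 4 sequences, glucose oxidase made up 1.00% of reads in winter bees (Wilson interval 0.991 to 1.01%), 0.972% in spring bees (0.961 to 0.982%) and 1.54% in retired bees (1.53 to 1.56%). The winter and spring libraries were close and the retired library was the highest. TC12346 had 36732, 30442 and 47205 reads in winter, spring and retired bees, which was over 95% of the glucose oxidase reads in each library. The spring level of TC12346 was 1.03-fold lower than the winter level (1.02 to 1.05). This small difference turned into a higher spring level under both rescalings of the libraries described at the end. The retired level was 1.60-fold higher than the spring level (1.58 to 1.63) and 1.56-fold higher than the winter level (1.54 to 1.58).

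The other glucose oxidase sequences did not all follow TC12346. TC23648 had 594, 521 and 795 reads in winter, spring and retired bees, or 504, 518 and 818 RPKM. Its retired level was 1.58-fold higher than the spring level (1.41 to 1.77), and the interval overlapped that of TC12346. BI511681 had 1203, 984 and 1073 reads, or 643, 616 and 695 RPKM, and was only 1.13-fold higher in the retired than in the spring library (1.03 to 1.23). Within a library, where scaling plays no part, BI511681 had 0.133 of the RPKM of TC12346 in winter (0.126 to 0.141) and 0.132 in spring (0.124 to 0.140). In the retired library this ratio was 0.0927 (0.0871 to 0.0984), below both other intervals. For TC23648 the same ratio was 0.105, 0.111 and 0.109, with overlapping intervals. The fourth sequence, BP539841, had 1, 0 and 1 reads.

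Reads covered a fraction of 0.729 to 0.733 of the length of TC12346 in the 3 libraries, so part of it had no uniquely mapped read even at 47205 reads. Coverage was 0.492 to 0.545 for BI511681 and 0.278 to 0.281 for TC23648. Reads that map to more than 1 of these sequences are not in the counts, and which stretches lack reads is not given. The levels of the 3 sequences are therefore uncertain relative to each other, and the part of shared reads in the different course of BI511681 was not tested.

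TC14055 had 110 reads in the winter library, 3875 in the spring library and 2680 in the retired library. The winter library stood far below the other 2. The spring level was 41.2-fold the winter level (34.1 to 50.3) and the retired level 29.5-fold the winter level (24.4 to 36.0). Between the later pools the order turned, and the retired level was 1.40-fold lower than the spring level (1.33 to 1.47). Of the 11955 sequences with at least 10 RPKM in the retired or the winter library, only 1 had a larger log2 ratio of retired over winter than TC14055. In spring over winter 15 of 12038 did. These ratios use RPKM + 1.

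A further sequence with the same best match was also lowest in winter, at low counts. TC14769 had 0, 14 and 22 reads in winter, spring and retired bees, or 0, 5.19 and 8.44 RPKM. For the count of 0 in the winter library a floor of 3 reads, or 0.951 RPKM, was used. Against that floor the level of TC14769 was 5.46-fold higher in spring bees and 8.88-fold higher in retired bees. These folds leave out the counting error of its own reads. The lower 95% bounds of the ratios to winter were 3.88-fold in spring and 6.63-fold in retired bees. The interval of its retired over spring ratio included 1 (0.796 to 3.44) and did not overlap that of TC14055, which lay below 1. Reads covered only a fraction of 0.0634 of TC14769 in spring and 0.143 in the retired library, so its reads came from a short stretch. Coverage of TC14055 by reads was 0.636 in winter, 0.800 in spring and 0.862 in the retired library, so its reads came from most of the sequence and not from a single stretch.

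The best match of TC14055 belongs to the gene LOC551044 and that of TC12346 to the gene LOC406081 in the RefSeq gene table of assembly Amel_HAv3.1. These genes are direct neighbours, with 0 other genes between them. The table was used for names and gene order only. Within the winter library TC12346 had 392 times the RPKM of TC14055 (325 to 477). The ratio was 9.22 in the spring library (8.92 to 9.54) and 20.7 in the retired library (19.9 to 21.5). The intervals of the 3 libraries did not overlap, and the ratio does not depend on how libraries are scaled. TC14055 took 18.2% of all dehydrogenase reads in the winter library (15.3 to 21.5%), 94.3% in the spring library (93.55 to 94.97%) and 91.8% in the retired library (90.8 to 92.8%). Royal jelly reads were likewise lowest in winter, and their part in the level of TC14055 was not tested. The sequence TC24109 of Mrjp2, a major royal jelly protein, had 953 times the RPKM of TC14055 in winter (791 to 1160). It had 116 times in spring (113 to 120) and 129 times in the retired library (124 to 134).

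The dehydrogenases of the other 16 proteins were scarce and, in sum, lower outside winter. Their 20 sequences had 494 reads together in the winter library, 220 in the spring library and 217 in the retired library. The sum was 1.92-fold lower in the spring than in the winter library (1.63 to 2.26) and 1.88-fold lower in the retired than in the winter library (1.60 to 2.22). This grouping was made after the values of TC14055 were known. The sum leans on a few sequences. TC14254, TC13216 and NP9553866 gave 150, 60 and 62 of its reads in winter and 38, 13 and 21 in spring. It was not taken without them, and the median log2 ratio of all sequences in spring over winter was itself -0.26. In spring over winter 13 of the 20 were lower and 5 higher by reads per library total, and after rescaling to a median ratio of 1 these counts were 12 and 6. The intervals of 4 lay below 1 and of 0 above 1, under every scaling tried. Of all 21076 sequences read in the winter or the spring library, 21.2% lay below 1 and 4.63% above without rescaling, so the count below 1 is near the background. Most of the 20 had too few reads for a difference to be detectable.

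TC14254 had the most reads of these in winter and in sum, with 150 in winter, 38 in spring and 43 in the retired library, or 16.2, 4.80 and 5.63 RPKM. Its spring level was 3.37-fold lower than its winter level (2.35 to 4.95) and its retired level 2.88-fold lower (2.04 to 4.14). TC13216 had 60, 13 and 24 reads, or 7.83, 1.99 and 3.79 RPKM. It was 3.94-fold lower in spring than in winter (2.14 to 7.83) and 2.06-fold lower in the retired library than in winter (1.27 to 3.47). NP9553866 had 62, 21 and 25 reads, or 8.52, 3.38 and 4.16 RPKM. It was 2.52-fold lower in spring than in winter (1.52 to 4.36) and 2.05-fold lower in the retired library than in winter (1.27 to 3.40). All 3 were highest in winter, and for each the interval of retired over spring included 1. Each reached the 50 reads needed to be described singly in winter only, so the choice itself favours a high winter level.

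TC17768 followed another course. It had 102 reads in winter, 79 in spring and 46 in the retired library, or 12.7, 11.5 and 6.92 RPKM. Its spring level was 1.10-fold lower than its winter level, with an interval that included 1 (0.814 to 1.50). The retired level was 1.66-fold lower than the spring level (1.14 to 2.44). The winter and spring libraries were thus close for TC17768, while TC14254, TC13216 and NP9553866 stood apart between them.

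**Figure D2:**
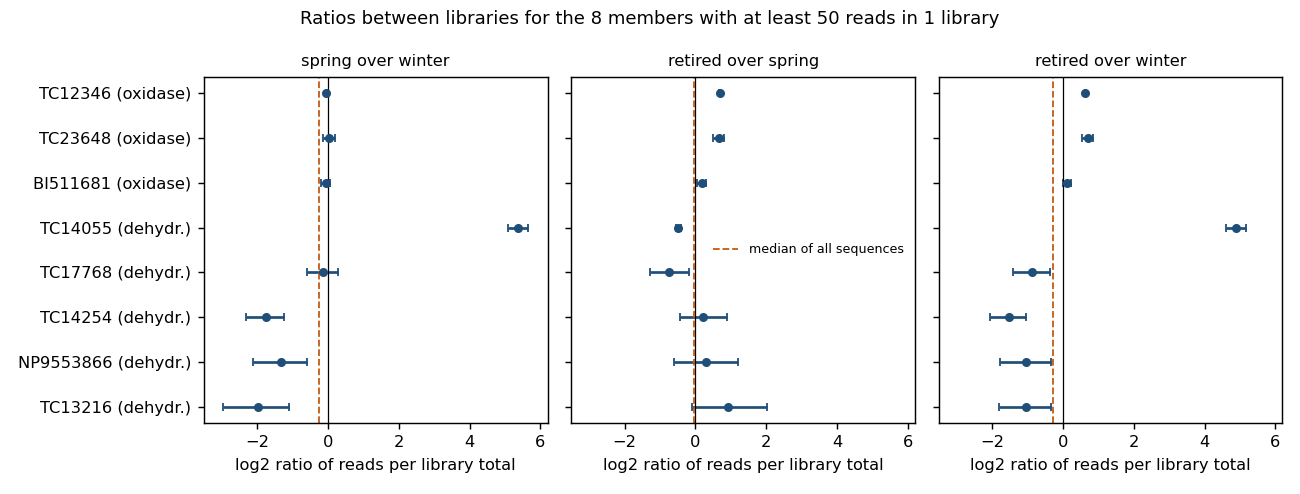
Log2 ratio of reads per library total for the 8 members with at least 50 reads in 1 library, with a panel for each comparison; bars are exact 95% intervals for counting error and the dashed line is the median of all sequences. TC14055 lies at 5.37 in spring over winter and 4.88 in retired over winter, and TC14254, NP9553866 and TC13216 lie below 0 in both.

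Some of the dehydrogenase genes lie side by side. LOC410734, LOC408603 and LOC410733 follow each other with 0 genes in between and match TC15077, TC13216 and TC14254 in that order. TC13216 and TC14254 were both highest in winter, as given above. TC15077 had 6, 8 and 5 reads, and its interval of spring over winter (0.475 to 5.46) was too wide to place it with its neighbours or apart from them. A looser group holds LOC410743 and LOC410745, with 2 genes between them, and LOC552425, 2 genes further on. LOC410743 had 22, 13 and 10 reads in winter, spring and retired bees, LOC410745 had 9, 2 and 1, and LOC552425 had 8, 11 and 15 over 2 sequences. These are counts near the limit of detection, and for LOC552425 the interval of retired over winter included 1 (0.904 to 6.18), though it lay above 1 after rescaling to a median ratio of 1 (1.11 to 7.58) and with totals that leave out royal jelly and the most abundant sequences (1.05 to 7.18). A gene was found for 11 of the 18 proteins, for some by another version of the same accession, so the order of the other 7 is not described.

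Of the 26 members, 18 had under 50 reads in every library. Their counts ranged from 0 to 26 in winter, 0 to 18 in spring and 0 to 24 in the retired library, and their highest level was 8.96 RPKM. In winter 4 of them had no read, in spring 6 and in the retired library 4. Singled out after its values were seen, NP9553985 had 23 reads in winter, 3 in spring and 6 in the retired library. Its spring level with so few reads was 6.55-fold lower than its winter level, with an interval from 1.98 to 34.1.

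Over all sequences the 2-fold calls show how common such differences were. A call took a difference of at least 2-fold in RPKM + 1 and at least 10 RPKM in 1 of the 2 libraries. In spring over winter 1 of 6 members tested, TC14055, was higher, against 2.14% of all sequences, and 1, TC14254, was lower, against 4.76%. In retired over spring 0 of 5 members were higher, against 1.81% of all sequences, and 0 were lower, against 1.96%. In retired over winter TC14055 alone was higher among 6, against 1.31%, and TC14254 alone lower, against 5.43%. TC14254 passed the minimum only through the winter library, where it is high, so its call carries little. The members tested had a median log2 ratio of -0.05 in spring over winter, against -0.26 for all sequences. It was 0.17 in retired over spring, against -0.02, and 0.37 in retired over winter, against -0.26. In each comparison 3 of the members tested were glucose oxidase sequences of the same gene. These medians therefore lean on that gene and are not medians over independent genes.

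Intervals off 1 were frequent in general. Of the 8 members with at least 50 reads in a library, the interval of spring over winter lay above 1 for 1 and below 1 for 4, against 8.64% and 40.9% of the 9365 sequences with such reads. The count below 1 is close to that background. It also hangs on the scaling, since both rescalings gave 4 above 1 and 3 below. In retired over spring 3 lay above 1 and 2 below, against 9.67% and 12%, and the 3 above were all glucose oxidase sequences of the same gene. In retired over winter 3 lay above 1 and 4 below, against 6.52% and 39.6%. Those above include TC12346 and TC23648, glucose oxidase sequences of the same gene. Both rescalings gave 4 above and 4 below for retired over winter. TC14254, NP9553866 and TC13216 reached 50 reads in winter only, where they are high, so their intervals below 1 against winter carry little.

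Alpha-glucosidase and alpha-amylase, which supply glucose from nectar sugar and starch, took another course than glucose oxidase. Hbg3, an alpha-glucosidase that splits sucrose, stood on its main sequence TC20807 at 7019 RPKM in winter, 875 in spring and 13882 in the retired library. Within a library it had 1.46 times the RPKM of TC12346 in winter (1.44 to 1.48), 0.187 times in spring (0.182 to 0.192) and 1.85 times in the retired library (1.83 to 1.87). Alpha-amylase, which cuts starch, on TC12373 had 0.137 of the RPKM of TC12346 in winter, 0.00517 in spring (0.00440 to 0.00605) and 0.137 in the retired library. Glucose oxidase was thus less abundant than Hbg3 in the winter and retired libraries and 5.34 times as abundant in the spring library. TC22116, a further sequence of the same protein as TC20807, had 36, 2 and 199 reads. In the word-matched list of 10 such sequences, 4 of 5 with at least 10 RPKM were 2-fold lower in spring over winter, against 4.76% of all sequences. In retired over spring 5 of 6 were 2-fold higher, against 1.81%. The list sequences tested match at most 4 proteins, and some passed the minimum only where they were high. The sequence that passed 2-fold in neither comparison was trehalase (TC12313), which splits trehalose, at 71.7, 69.2 and 84.0 RPKM, with an interval of retired over spring above 1. The median log2 ratios were -3.003 and 3.92, against -0.26 and -0.02 for all sequences.

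**Figure D3:**
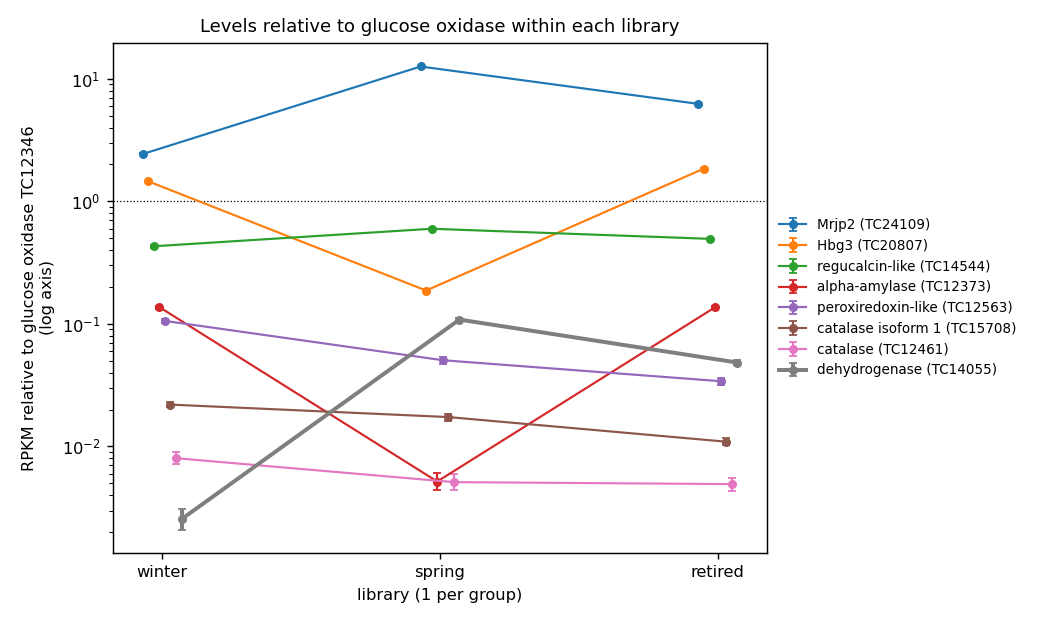
RPKM of 8 sequences divided by the RPKM of glucose oxidase TC12346 in the same library, on a log axis, with exact 95% intervals for counting error and 1 library per group. Hbg3 goes from 1.46 in winter to 0.187 in spring and 1.85 in the retired library, while TC14055 is lowest in winter and highest in spring.

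Enzymes that remove hydrogen peroxide or superoxide, numbered 11 with at least 10 RPKM. Of these, 6 intervals lay below 1 and 0 above in spring over winter, where 34% and 7.4% of all sequences with at least 10 RPKM did. Both rescalings gave 4 below and 1 above. The median log2 ratio without rescaling was -0.38, against -0.26 for all sequences. In retired over spring 1 lay above 1 and 0 below, where 8.71% and 11% of all sequences did, and the median was -0.11. The peroxiredoxin-like Tpx-4 (TC12563), a peroxide-reducing enzyme, stood at 510 RPKM in winter, 236 in spring and 256 in the retired library, and was 2.16-fold lower in spring than in winter (1.99 to 2.34). Catalase (TC12461), which splits hydrogen peroxide, stood at 38.6, 23.9 and 37.0 RPKM and was 1.55-fold higher in the retired than in the spring library (1.27 to 1.88). A mitochondrial phospholipid hydroperoxide glutathione peroxidase (TC14067) stood at 34.3, 22.2 and 18.6 RPKM and was 1.55-fold lower in spring than in winter (1.23 to 1.96). The more abundant catalase isoform 1 (TC15708) stood at 106, 81.2 and 82.0 RPKM and had like levels in spring and retired bees. Relative to TC12346 within each library, Tpx-4 had 0.106 of its RPKM in winter, 0.0505 in spring and 0.0341 in the retired library. For TC12461 the same ratio was 0.00802, 0.00511 and 0.00493. Both ratios were highest in winter, and the spring and retired intervals of Cat overlapped.

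Enzymes of gluconate, the pentose phosphate pathway and glucose entry numbered 26 sequences. Of the 18 with at least 10 RPKM, 2 intervals lay above 1 and 8 below in spring over winter. After rescaling to a median ratio of 1 these counts became 4 and 0 of 18. With totals that leave out royal jelly and the most abundant sequences they were 4 and 2 of 18. Among all sequences with at least 10 RPKM, 7.4% lay above and 34% below without rescaling. In retired over spring 8 of 19 lay above and 0 below, where 8.71% and 11% of all sequences did without rescaling. After rescaling to a median ratio of 1 these counts were 8 and 0 of 20. The median log2 ratio in retired over spring was 0.21, against -0.02 for all sequences. TC14544, TC15559 and BI513336, described below, were picked for the largest log2 ratios of RPKM + 1 in this list. Regucalcin-like TC14544 stood at 2072 RPKM in winter, 2792 in spring and 3708 in the retired library, and TC15559, with the same match, at 589, 805 and 1044. A further regucalcin-like sequence, TC15911, was far scarcer and did not rise, at 35.9, 34.9 and 33.4 RPKM. In mammals regucalcin acts as a gluconolactonase, which opens the lactone that glucose oxidase also makes. TC14544 was 1.35-fold higher in spring than in winter (1.31 to 1.39) and 1.33-fold higher in the retired than in the spring library (1.29 to 1.36). A hexokinase-2-like sequence (BI513336), of the enzyme that phosphorylates glucose, had 31, 11 and 17 reads and was 2.41-fold lower in spring than in winter (1.18 to 5.31). It reached 10 RPKM only in winter. The abundant hexokinase sequences varied less, with TC23087 at 118, 95.2 and 96.6 RPKM and TC23906 at 118, 98.7 and 119 RPKM. Besides the members, the list of other GMC oxidoreductases held a single sequence, NP9545726, like the neither inactivation nor afterpotential protein G of Drosophila, with 7, 0 and 1 reads.

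**Figure D4:**
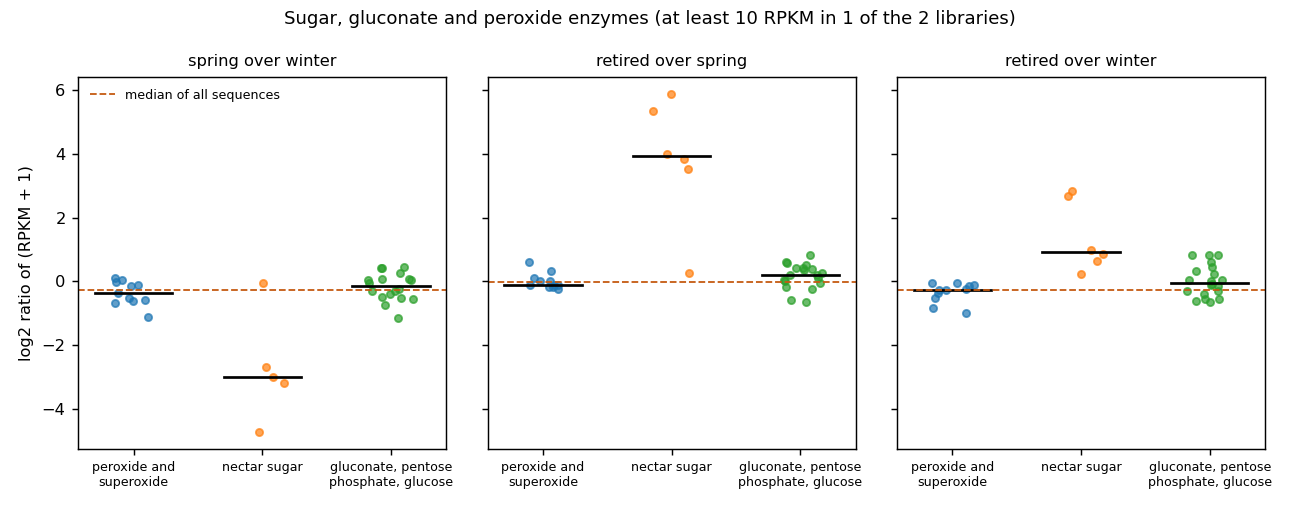
Log2 ratio of RPKM + 1 for each sequence that reached 10 RPKM in either library, in 3 word-matched enzyme lists, by comparison; black bars are list medians and the dashed line is the median of all sequences. Nectar sugar enzymes lie far below 0 in spring over winter (median -3.003) and far above in retired over spring (median 3.92). The medians of the other lists lie much closer to that of all sequences. In retired over spring the gluconate list has a median of 0.21, against -0.02.

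Likeness of course over the 3 libraries was measured as the distance between centred log2(RPKM + 1) values, over 4101 described sequences with at least 200 reads. Nearest to TC12346 were a solute carrier family 41 member 2-like sequence (TC23883, distance 0.09), glucose-6-phosphate 1-dehydrogenase (TC14658, 0.13) and a transient receptor potential protein (TC17191, 0.14). TC14658, whose enzyme opens the pentose phosphate pathway, stood at 10.7, 11.4 and 16.6 RPKM in winter, spring and retired bees. For TC12346, 30 sequences lay within a distance of 0.25. TC14055 had 0 within that distance. Its nearest were protein takeout-like (TC13883, distance 1.20), asparagine synthetase (TC18735, 1.50) and venom acid phosphatase Acph-1-like (TC15604, 1.67), all lowest in winter and highest in spring. TC13883 stood at 4.86, 85.1 and 53.8 RPKM. Nearest to TC14254 were a putative phospholipase B-like lamina ancestor-like sequence (TC13792, 0.02), endoplasmic reticulum aminopeptidase 2-like (TC17859, 0.10) and protein lethal(2)essential for life-like (TC12617, 0.14). With 3 libraries a profile has only 2 free values, so many unrelated sequences can lie close. The distances also leave out counting error, which is wide for TC14254 (150, 38 and 43 reads) and TC14658 (69, 63 and 89 reads). The added 1 flattens the profiles of such low sequences.

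When libraries were rescaled to a median ratio of 1, the overall median of log2 ratios went from -0.26 to 0.00 in spring over winter. In retired over winter it went from -0.26 to 0.03. Relative to the unscaled median of all sequences, TC12346 lay at 0.22 in spring over winter on the log2 scale of RPKM + 1. Its value was 0.71 for retired over spring, and 0.90 for retired over winter. For TC14055 these values were 5.52, -0.46 and 5.04. The differences of TC14055 are far larger than this shift in both comparisons with winter, while the spring over winter difference of glucose oxidase is smaller than it. Each library enters 2 of the 3 comparisons, so the comparisons are not independent of each other.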

How the data were processed

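Total RNA was recorded as coming from hypopharyngeal glands, enriched with oligo-dT beads, fragmented, amplified by PCR and read on an Illumina HiSeq, per the labels' protocols. Each library has its own deposited table, which per the file headers gives the count of uniquely mapped reads, the coverage as a fraction of sequence length, RPKM and the best protein match. The deposited RPKM follow from the deposited reads, sequence length and library total for every sequence. An aligner, a counter and a sequence set release were not given in the sources used here.

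Tables were joined on the sequence identifier, with unlisted values taken as 0. Folds are ratios of reads per library total with exact conditional binomial (Clopper-Pearson) 95% intervals, shares have Wilson intervals, and 2-fold calls used log2 of RPKM + 1, which understates low sequences. Since each group is 1 library, samples could not be tested against each other. Members with at least 50 reads in 1 library were described singly, with 3 nearest sequences for 3 members and up to 3 members of each list of related enzymes. These list members had the largest absolute log2 ratios in any comparison, among those with at least 10 RPKM in 1 library. Their folds are thus extremes of their lists and not typical values. Added after their values were seen were Mrjp2 (TC24109), the catalase TC15708, the trehalase TC12313, the regucalcin-like TC15911 and 2 hexokinase sequences. The low members described for their gene order were also added in this way. The members and lists were chosen with earlier results of these data known. Gene names came from RefSeq, assembly Amel_HAv3.1. The fold and interval code was tested on simulated data. Alternatives were 2 rescalings (median of ratios, and totals without 60 royal jelly and most abundant sequences), TPM, pseudocounts, minimum values, a 4-fold threshold, pooling per protein and the orthology text. Tools were scipy 1.17.1, pandas 2.3.3, numpy 2.4.6 and matplotlib 3.10.9 under Python 3.11.15.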

Additional observations from a re-analysis of the deposited data

How the results depend on the processing

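Of the counts of 2-fold members and the log2 ratios of glucose oxidase and TC14055, 66 values under an alternative stayed close to the value given, 22 moved and 2 reversed. The log2 ratio of summed glucose oxidase reads in spring over winter was -0.04 and became 0.22 with median of ratios and 0.17 with totals that leave out royal jelly and the most abundant sequences; for TC12346 alone it was 0.22 and 0.17. In retired over spring it was 0.67, and 0.70 with median of ratios and 0.73 with TPM. In retired over winter it was 0.63, and 0.92, 0.84 and 0.68 with median of ratios, the reduced totals and TPM. TC14055 in retired over winter moved from 4.88 to 5.18 with median of ratios. With a minimum of 1 RPKM or none, the members called became 3 higher and 4 lower in spring over winter, 1 lower in retired over spring, and 3 higher and 2 lower in retired over winter. With at least 50 reads in the 2 libraries, 3 were lower in spring over winter. With a 4-fold threshold, or with a mean of at least 10 RPKM over the 3 libraries (chosen after seeing the data), 0 were lower in spring over winter and in retired over winter, and with a pseudocount of 5 RPKM 0 were lower in retired over winter. The changes with a minimum come from more sequences of few reads entering, and those with a scaling from the library totals. No paired analysis was possible because each group has 1 library. Depth limits the 18 members under 50 reads, and no replicate could be left out.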
